A study of Homo sapiens with 8 samples.

Results

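The FOS-family genes FOS, FOSB, FOSL1 and FOSL2, the JUN-family genes JUN, JUNB and JUND, and the stress- and growth-induced genes ATF3 and IER5 were examined for dimethylation of lysine 4 of histone H3 (H3K4me2). The members are the peaks of the deposited lists that overlap the hg19 intervals of these 9 genes, each widened by 20 kb on either side. Of 280986 peaks on chromosomes 1 to 22 and X in the 6 lists, 259 were members. The library lists held 39 and 41 members for siCtrl replicates 1 and 2 and 47 and 44 for siLSD1 replicates 1 and 2, and the pooled lists 42 and 46. The members were thus chosen by the presence of a peak, and the genes with results of these libraries in view, so peak numbers, widths, scores and covered length are given here as a description.

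The data are chromatin immunoprecipitation and sequencing (ChIP-seq) peak lists from RD, an established human rhabdomyosarcoma cell line. One group received a Silencer Select siRNA against LSD1 (siLSD1) and the other a control siRNA (siCtrl), with 2 ChIP libraries each, which the submitters call biological replicates. Both groups were reverse transfected with Lipofectamine RNAiMAX, had their medium changed after 8 hours and were harvested 96 hours after transfection. A single siRNA construct against LSD1 and a single cell line were used, the level of LSD1 was not measured in these files, and the 4 input libraries were not analysed here. In bulk chromatin, a larger share of marked cells and more mark per cell cannot be told apart.

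AP-1 is a dimeric transcription factor. JUN proteins pair with each other or with FOS proteins through leucine zippers and bind the element TGACTCA, and JUN dimers with ATF proteins prefer TGACGTCA. FOS, FOSB, JUN, JUNB, ATF3 and IER5 are immediate-early or stress-response genes, whose promoters are kept ready for fast induction, while JUND is expressed more steadily. H3K4me2 marks promoters and enhancers. LSD1, encoded by KDM1A, is a demethylase that acts on this mark and on the monomethyl form of the same lysine.

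The promoters of 5 members, at least 1 from each family, are shown to compare their binding elements and CpG content with the marking at the gene start. They are the 250 bases before the start in the RefSeq promoter table, on build GRCh38.p14, and were matched by gene symbol and not by position to the hg19 peaks. Capitals mark the 8-letter elements TGACGTCA and TGACATCA and the shorter TGACG, on either strand.
FOS (chr14:75278578-75278827, plus strand): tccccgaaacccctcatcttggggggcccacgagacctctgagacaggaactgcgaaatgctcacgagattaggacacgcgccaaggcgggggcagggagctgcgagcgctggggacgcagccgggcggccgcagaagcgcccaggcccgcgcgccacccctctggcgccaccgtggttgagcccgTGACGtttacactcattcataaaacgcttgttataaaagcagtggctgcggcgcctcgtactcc
JUN (chr1:58784048-58784297, minus strand): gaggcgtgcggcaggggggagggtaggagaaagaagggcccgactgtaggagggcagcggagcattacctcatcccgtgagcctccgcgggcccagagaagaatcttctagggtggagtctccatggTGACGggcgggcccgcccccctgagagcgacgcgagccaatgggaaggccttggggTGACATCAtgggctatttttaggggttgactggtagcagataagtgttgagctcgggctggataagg
JUND (chr19:18281623-18281872, minus strand): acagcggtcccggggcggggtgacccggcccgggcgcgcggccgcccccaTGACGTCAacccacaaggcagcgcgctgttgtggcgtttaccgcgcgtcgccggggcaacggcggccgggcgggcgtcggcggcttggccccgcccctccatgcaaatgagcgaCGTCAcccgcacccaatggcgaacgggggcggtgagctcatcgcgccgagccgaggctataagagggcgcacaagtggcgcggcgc
ATF3 (chr1:212565157-212565406, plus strand): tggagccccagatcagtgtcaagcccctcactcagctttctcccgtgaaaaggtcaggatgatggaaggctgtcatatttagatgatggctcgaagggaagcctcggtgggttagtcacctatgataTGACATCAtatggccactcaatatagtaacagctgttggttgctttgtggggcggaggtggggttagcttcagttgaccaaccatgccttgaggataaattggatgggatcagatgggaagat
IER5 (chr1:181088450-181088699, plus strand): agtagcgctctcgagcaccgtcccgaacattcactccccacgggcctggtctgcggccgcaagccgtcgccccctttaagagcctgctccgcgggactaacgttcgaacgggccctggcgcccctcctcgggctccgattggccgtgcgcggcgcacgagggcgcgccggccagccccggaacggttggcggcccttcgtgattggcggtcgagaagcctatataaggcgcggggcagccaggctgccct

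The promoter table matched 8 of the 9 members, all but FOSL1. The element TGACTCA, searched on both strands, was in 0 of these members, against 4.2% of 35114 promoters in the table. With 8 members such a share can easily give 0, so no lack of the element is read from it. JUND held TGACGTCA, found in 1.65% of promoters, with its first base at -200 from its start, and JUN and the promoter shown for ATF3 held TGACATCA, found in 2.38%, at -67 and -123. TGACG, which is also the first part of TGACGTCA, was found in FOS, FOSB, FOSL2, JUN, JUNB and JUND, 6 of the 8, against 21.2% of promoters. It contains a CpG, and the 21.2% is not matched for CpG number. CpG numbers in the 250 bases were 40 for JUND, 33 for IER5, 27 for JUNB, 25 for FOS, 24 for FOSL2, 19 for FOSB and 14 for JUN. The ATF3 promoter shown held 4, a second ATF3 promoter, not shown, held 0, and the median over the table was 11. These ATF3 promoters were not placed against the peaks, so their CpG numbers cannot be set beside the marking inside that gene. A match of letters is a description and not a binding site.

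A peak overlapped the start of 8 of the 9 genes in each of the 4 library lists. The start is taken as the first kilobase of the interval at the gene's 5′ end, since the intervals are given to 1 kb. In the library lists this kilobase was covered in full at these genes except at FOSL1, with 636 and 745 bp in siCtrl replicates 1 and 2, at JUND, with 784 bp in siCtrl replicate 1 and 824 bp in siLSD1 replicate 1, and at FOSL2, with 478 bp in siLSD1 replicate 1. The exception was ATF3, an ATF-family factor of the stress response, whose interval opens at a far upstream start. Any start further inside the ATF3 interval was not assessed here. In no library list did a peak reach its first kilobase, and the pooled siLSD1 list reached only its last 55 bp. Peaks stood on both sides of it, from -3.81 to -2.40 kb and from 1.24 to 3.68 kb of the 5′ end when the 4 libraries were merged, where minus is upstream. At IER5, by contrast, the whole first kilobase was covered in every list.

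**Figure D1:**
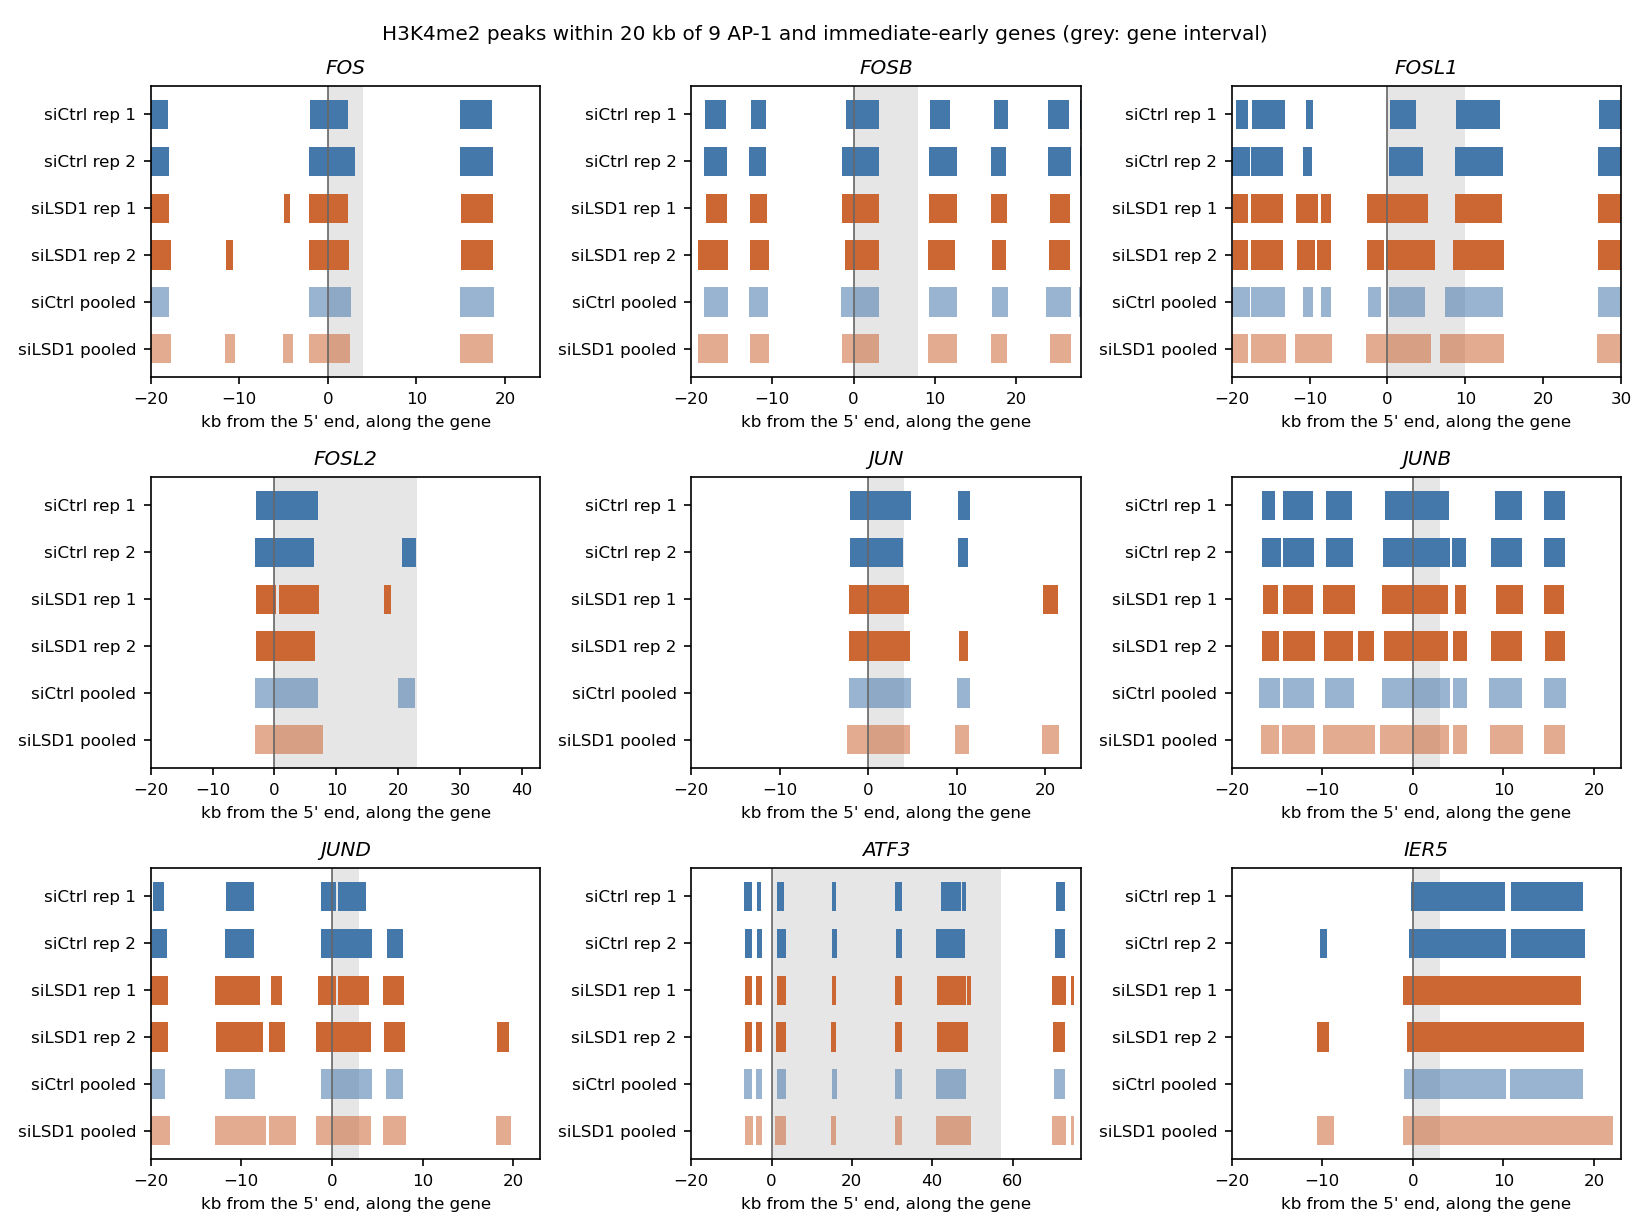
Peaks of the 4 library lists and the 2 pooled lists (bars, 1 row per list) at each locus, by distance in kb from the 5′ end of the gene interval and along the direction of the gene, with the interval in grey. Peaks overlap the first kilobase at 8 loci in every library list, ATF3 is the exception, and additional or longer siLSD1 bars stand out upstream of FOSL1 and JUND.

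In the FOS family, the starts of FOS and FOSB, the inducible partners of JUN proteins, had peak widths that overlapped between the siRNA groups. The peak over the FOS start was 4.28 and 5.14 kb wide in siCtrl replicates 1 and 2 and 4.40 and 4.48 kb in siLSD1 replicates 1 and 2. At FOSB the widths were 4.11 and 4.46 kb after siCtrl and 4.57 and 4.11 kb after siLSD1. Over the whole FOS locus, 9.77 and 10.9 kb were under peaks after siCtrl and 10.8 and 11.1 kb after siLSD1. Over the FOSB locus the values were 15.3 and 17.5 kb, and 17.1 and 17.6 kb. The groups overlapped at both loci. A peak 14.9 to 18.7 kb downstream of the FOS 5′ end was found in every library, at 3.57, 3.72, 3.62 and 3.62 kb in the order siCtrl 1, siCtrl 2, siLSD1 1, siLSD1 2.

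FOSL1, which encodes FRA-1, a FOS-family protein without the transactivation domain of FOS itself, had the largest difference of the 9 loci between the full library lists. In the pooled lists JUND and IER5 had larger ones, 8.475 and 5.76 kb against 4.71 kb. JUND was also above FOSL1 in the upper 50% of each list by score (7.25 against 6.11 kb). With flanks of 50 kb JUND was above it too (9.58 against 9.15 kb). Peaks covered 18.4 and 21.2 kb of the 50-kb widened FOSL1 interval after siCtrl and 26.9 and 28.2 kb after siLSD1. The means were 19.8 ± 1.94 kb and 27.6 ± 0.890 kb (SD, n = 2), a difference of 7.78 kb, and the groups did not overlap. The peak over the FOSL1 start was 3.29 and 4.30 kb wide after siCtrl and 7.82 and 6.36 kb wide after siLSD1. In the siCtrl libraries its upstream end lay inside the interval, at 0.364 and 0.255 kb, and in siLSD1 replicates 1 and 2 it lay outside, at -2.56 and -0.213 kb. In siLSD1 replicate 2 a second peak followed further upstream. The merged region, chromosome 11 from 65662859 to 65671591, thus held 3.29 and 4.30 kb under peaks after siCtrl and 7.82 and 8.54 kb after siLSD1.

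A second region upstream of FOSL1, chromosome 11 from 65676187 to 65680776, was covered over 0.906 and 1.17 kb in siCtrl replicates 1 and 2, and over 4.14 and 4.16 kb in siLSD1 replicates 1 and 2. Its highest scores were 64.81 and 77.9 after siCtrl, near the lowest score deposited, and 262.93 and 171.98 after siLSD1. Within their own lists these ranked at percentiles 11.9 and 15.2, and 63.3 and 44.6. The other 4 regions of the locus differed by at most 0.4895 kb between the group means. The pooled siCtrl list covered 26.2 kb of the FOSL1 locus, more than either siCtrl library, and the pooled siLSD1 list 30.9 kb. It had peaks upstream of the start, one of them from -2.55 to -0.781 kb, where neither siCtrl library had one. The pooled difference of 4.71 kb was therefore smaller than that of the libraries. RefSeq places EFEMP2, CTSW, FIBP, CCDC85B, C11orf68 and DRAP1 within 20 kb of FOSL1, so peaks of this locus can belong to other genes.

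At FOSL2, which encodes the related FRA-2, the groups overlapped. Its start lay under a domain of 9.95 and 9.55 kb after siCtrl and 9.72 and 9.53 kb after siLSD1, where siLSD1 replicate 1 had it as a pair of peaks with a gap of 0.522 kb. Over the locus, 9.95 and 11.8 kb were covered after siCtrl and 10.8 and 9.53 kb after siLSD1, a difference of -0.70 kb with overlapping groups. A weak peak from 20.6 to 22.9 kb into the gene, with a score of 98.77, was in siCtrl replicate 2 only among the libraries.

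In the JUN family, the groups overlapped at the loci of JUN and JUNB. The domain over the JUN start was 6.82 and 5.96 kb wide after siCtrl and 6.83 and 6.94 kb after siLSD1, so that both siLSD1 values were above both siCtrl values, but siLSD1 replicate 1 stood at 6.829 kb against 6.823 kb in siCtrl replicate 1. Over the JUN locus the groups overlapped, with 8.21 and 7.13 kb after siCtrl and 8.51 and 8.01 kb after siLSD1. At JUNB, which encodes a JUN protein that often restrains JUN activity, the start domain was 7.14 and 7.39 kb after siCtrl and 7.25 and 7.07 kb after siLSD1. The JUNB locus had 20.1 and 23.4 kb under peaks after siCtrl and 22.2 and 24.5 kb after siLSD1, again with overlap. RefSeq lists HOOK2, PRDX2, THSD8 and RNASEH2A within 20 kb of JUNB.

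At JUND the groups did not overlap. Peaks covered 9.03 and 12.2 kb of its 43-kb widened interval after siCtrl and 15.9 and 18.5 kb after siLSD1. The means were 10.6 ± 2.25 kb and 17.2 ± 1.79 kb (SD, n = 2), a difference of 6.59 kb. The difference lay mostly away from the gene start. The region over the start held 4.73 and 5.63 kb after siCtrl and 5.51 and 6.03 kb after siLSD1, which overlap. Upstream, chromosome 19 from 18400612 to 18405867 held 3.10 and 3.23 kb after siCtrl and 4.90 and 5.14 kb after siLSD1. Between that region and the start, chromosome 19 from 18398145 to 18399920 had no siCtrl peak and peaks of 1.31 and 1.78 kb in siLSD1 replicates 1 and 2.

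That peak was weak, with scores of 97.75 and 64.92. Downstream of JUND, chromosome 19 from 18384920 to 18387319 had no peak in siCtrl replicate 1, 1.81 kb in siCtrl replicate 2 and 2.32 and 2.29 kb in the siLSD1 libraries. Its scores were 103.25 in siCtrl replicate 2 and 236.42 and 365.98 in siLSD1 replicates 1 and 2. Within their own lists these ranked at percentiles 24.0, 59.7 and 65.8. The pooled lists showed 12.3 kb after siCtrl and 20.8 kb after siLSD1. When the interval was widened by only 5 kb on either side, the JUND difference was 1.96 kb and the FOSL1 difference 4.74 kb. The protein-coding gene IQCN and several noncoding genes lie within 20 kb of JUND in RefSeq.

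ATF3 had 15.7 and 17.8 kb under peaks after siCtrl and 20.9 and 19.3 kb after siLSD1. The means were 16.8 ± 1.45 kb and 20.1 ± 1.13 kb (SD, n = 2), and the groups did not overlap. The difference of 3.30 kb was 1.83 kb when each list was limited to its 33878 top-scoring peaks, as many as siCtrl replicate 1 has. The ATF3 locus then held 15.7 and 17.806 kb after siCtrl and 17.922 and 19.3 kb after siLSD1, so its groups stood apart by little. The main domain lay inside the gene, 41.1 to 49.7 kb downstream of the upstream 5′ end, at chromosome 1 from 212779052 to 212787690. It held 6.07 and 7.18 kb after siCtrl and 8.38 and 7.55 kb after siLSD1. Its highest-scoring peaks ranked at percentiles 97.5 and 97.6 in the siCtrl lists and 99.0 and 95.1 in the siLSD1 lists. ATF3 is known to have alternative promoters far apart. Whether one lies under this domain was not determined, since no hg19 gene annotation was used. Of the 7 ATF3 regions with a peak in every library, 5 were broader after siLSD1, each siLSD1 library above each siCtrl library, and 1 was narrower, against 30.3% and 9.62% of all common regions.

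IER5, an immediate-early gene of the growth and heat-stress response, had the widest domain at its start. In siCtrl replicates 1 and 2 it was a peak of 10.4 and 10.7 kb over the start, followed after a gap of 0.661 and 0.633 kb by another peak. In siLSD1 replicates 1 and 2 that gap was absent, and peaks of 18.6 and 19.5 kb ran across it from -1.07 and -0.652 kb. In siLSD1 replicate 1 a further peak of 1.01 kb followed after a gap of 8 bp. The mean width of the start peak was 10.6 ± 0.166 kb and 19.1 ± 0.631 kb (SD, n = 2), without overlap, but this counts the joining of peaks. The sequence under peaks in the merged domain, chromosome 1 from 181055931 to 181076036, was 18.3 and 18.8 kb after siCtrl and 19.7 and 19.5 kb after siLSD1. The pooled siCtrl list kept a gap of 0.373 kb, and the pooled siLSD1 list had a single peak of 23.2 kb. Over the IER5 locus the pooled lists covered 19.3 kb after siCtrl and 25.1 kb after siLSD1, a difference of 5.76 kb.

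**Figure D2:**
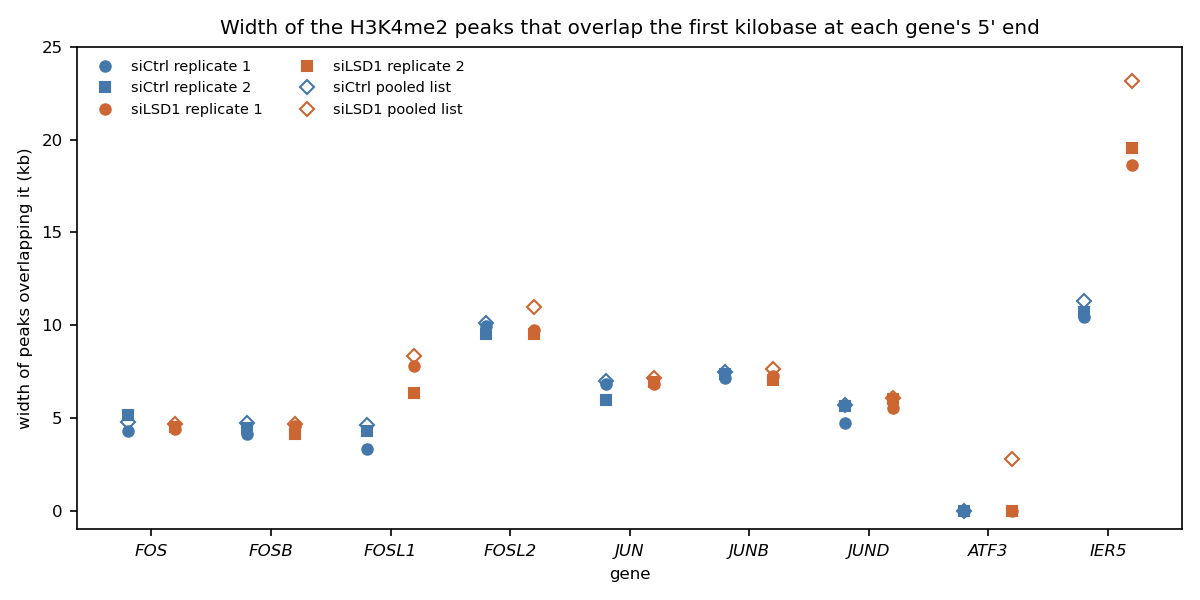
Width in kb of the peaks that overlap the first kilobase at the 5′ end of each gene, with 1 filled symbol per library and open diamonds for the pooled lists; 0 means no such peak. Widths of IER5 and FOSL1 lie apart between the groups by more than 2 kb, while FOS, FOSB, FOSL2 and JUNB overlap.

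Taking the 9 loci together, peaks covered 124.8 and 141.4 kb of 475 kb after siCtrl and 152.8 and 157.4 kb after siLSD1. Both siLSD1 libraries were above both siCtrl libraries at FOSL1, JUND, ATF3 and IER5, which is 4 of 9 loci (44.4%), and below them at 0. Over 3232 tiles of 50 kb with a mean of at least 7 kb under peaks, 47.1% were higher in both siLSD1 libraries and 5.85% lower. The members' share is near that background. The comparison is a rough one, since the widened intervals run from 43 kb, as at IER5, to 97 kb at ATF3. The IER5 locus held 18.3 and 19.571 kb after siCtrl and 19.655 and 20.8 kb after siLSD1, so its groups stood apart by little, and in the upper 50% of each list by score they overlapped. The median difference was 1.29 kb over the loci and 1.30 kb over the tiles. The IER5 difference of 1.29 kb between the library lists was thus that of a typical tile, while the pooled lists differed by 5.76 kb there. Differences as large as those of JUND and FOSL1 were found in 2.82% and 1.49% of tiles. With 2 libraries against 2, an exact permutation test cannot give a p below 0.333, and none was run on single loci.

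List length moved with the groups. The siCtrl lists held 33878 and 44831 peaks and the siLSD1 lists 50587 and 49611, and its part in these differences was tested only through lists of equal length. With 33878 peaks per list, the FOSL1 locus held 18.4 and 19.995 kb after siCtrl and 25.7 and 26.4 kb after siLSD1, and the JUND locus 9.03 and 10.4 kb, and 14.6 and 15.3 kb. The second FOSL1 upstream region then had no peak in siCtrl replicate 2. The groups then stood apart at 5 of 9 loci (55.6%), with JUNB added, and in the lower direction at 0, against 33.6% and 10.5% of 2664 tiles. Leaving out siCtrl replicate 1, whose list was the shortest, left differences of 6.40 kb at FOSL1, 4.9955 kb at JUND, 2.275 kb at ATF3 and 0.6475 kb at IER5, which is a smaller difference than with that library at each. Leaving out siLSD1 replicate 2 left 0.7235 kb at IER5.

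**Figure D3:**
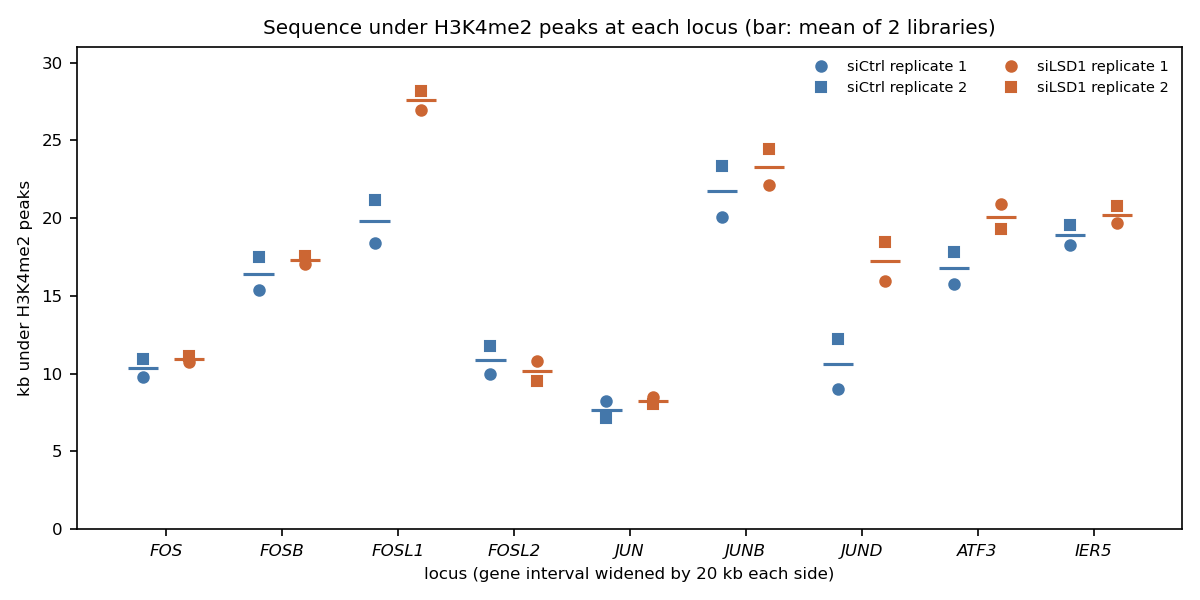
Kilobases under peaks in each widened interval, with 1 symbol per library and a bar at the mean of each group of 2 libraries. The siLSD1 libraries lie above the siCtrl libraries at FOSL1, JUND, ATF3 and IER5 and overlap with them at the other 5 loci.

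Merging library peaks that shared 1 bp or more gave 48 regions at the loci. Of these, 35 (72.9%) had a peak in every library, against 45.2% of all 58952 regions. A peak in both siLSD1 libraries and neither siCtrl library was found in 1 region (2.08%), the one upstream of JUND, against 6.97% of all regions. The reverse was found in 0 regions, against 1.04%. Of the 35 common regions, 13 (37.1%) were broader in both siLSD1 libraries and 3 (8.57%) narrower, against 30.3% and 9.62% of all 26653 common regions. The broader and narrower shares are near those of the genome. More peaks in both siLSD1 libraries were found in 1 common region, at FOSL1, and fewer in 0, against 2.03% and 0.537% of common regions. With lists of equal length there were 39 regions, 33 of them common (54.4% of all regions), 2 gained (3.29%), at JUNB and JUND, and 0 lost (3.42%), the percentages being those of the genome. Of the 33, 12 were broader (30% of common regions) and 3 narrower (9.43%), and 0 had more (1.29%) or fewer (0.724%) peaks. Leaving out a library loosened the rule, since its group was then judged on 1 library, and the counts moved. Gained regions numbered 7 without siLSD1 replicate 2, 6 without siLSD1 replicate 1 and 3 without siCtrl replicate 2. In these settings 16.8%, 17.9% and 19.5% of all regions were gained. Broader regions numbered 26 without siCtrl replicate 2 and 21 without siLSD1 replicate 1, where 63.1% and 52.9% of all common regions were broader. Narrower regions numbered 10 without siCtrl replicate 1 and 5 without siCtrl replicate 2, against 30.7% and 14.1% of all common regions. They numbered 6 without siLSD1 replicate 1 and 6 without siLSD1 replicate 2, against 16.4% and 26.0%. The shares over the genome were thus higher too when a library was left out. In the full lists the broader regions were 5 at ATF3, 2 each at FOSL1 and JUND, and 1 each at FOSB, JUN, JUNB and IER5, and the narrower ones 1 each at FOSB, JUNB and ATF3. The narrower regions differed by between -0.1245 and -0.2095 kb.

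**Figure D4:**
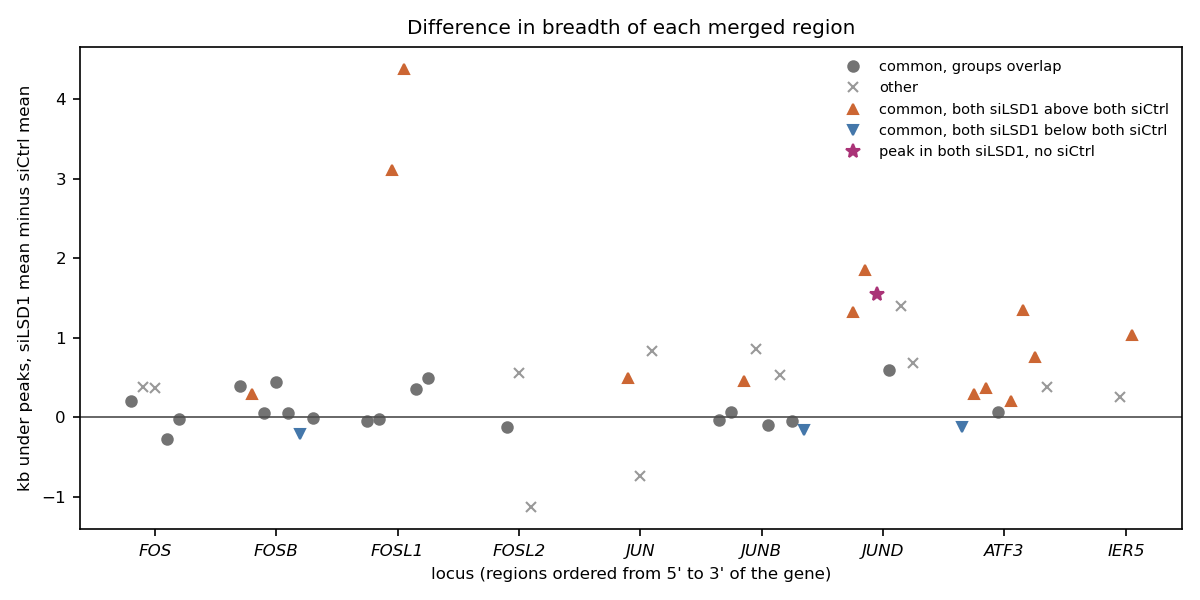
Difference in kb under peaks, siLSD1 mean minus siCtrl mean, for each of the 48 merged regions at the loci, ordered within a locus from 5′ to 3′; symbols give how the 2 groups of libraries lie. Most regions lie within 1 kb of 0, and the highest values are 4.38 and 3.12 kb at FOSL1.

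The fit across all 10-kb windows called no window at the loci. In the limma test, 0 of 43372 windows of the genome were higher (0%) and 0 lower (0%) after siLSD1 at a Benjamini-Hochberg adjusted p under 0.05. At an unadjusted p under 0.05, limma had 5389 higher and 840 lower. Of the 42 windows tested at the 9 loci, 6 were higher at that level and 0 lower, a share set beside 12.4% and 1.94% of all windows. The window from 65670001 to 65680000 on chromosome 11, upstream of FOSL1, held 0.906 and 1.17 kb after siCtrl and 4.93 and 5.10 kb after siLSD1. Its difference of 3.98 ± 0.204 kb (SE) had a limma adjusted p of 0.129. The window from 18400001 to 18410000 on chromosome 19, upstream of JUND, differed by 1.85 ± 0.227 kb (SE) with the same adjusted p.

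Within each list the peaks at the starts ranked high. The median score percentile of the start peaks was 96.3 and 98.0 in the siCtrl lists and 96.0 and 97.6 in the siLSD1 lists, over the 8 genes that had one. The score is the authors' own value and piles up at 3100, a level that 19 and 899 peaks reached in siCtrl replicates 1 and 2 and 56 and 222 in siLSD1 replicates 1 and 2. In siCtrl replicate 2 the start peaks of FOS, FOSB, FOSL2, JUN and JUNB had reached it, and in siCtrl replicate 1 none had, with scores from 986.87 at FOS to 2576.89 at JUNB for these 5 genes. The start peak of IER5 ranked lower in the siCtrl lists, at percentiles 26.8 and 73.5, than in the siLSD1 lists, at 94.1 and 88.4. Lists of unequal length do not make these ranks comparable. In lists of equal length the IER5 percentiles were 26.8 and 64.9 after siCtrl and 91.2 and 83.0 after siLSD1. The siLSD1 peak there is the joined one. JUND start peaks ranked at 76.7, 86.0, 85.6 and 94.9 in the order siCtrl 1, siCtrl 2, siLSD1 1, siLSD1 2.

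The 20-kb edge decided some members. Between 3 and 4 peaks per list crossed an edge and were counted only up to it in covered length. Merged regions were not cut at the edge. The JUND region on chromosome 19 from 18411097 to 18417057, counted as broader, runs beyond the edge at 18413000. In siLSD1 replicate 2 a peak with a score of 1660.95 began 22 bp beyond the FOSB edge and was not a member, while the other 5 lists had the same peak start inside the edge. FOSB therefore had 6 members in that list and 7 in the others. Just inside, a FOSL1 peak with a score of 1045.7 ended 16 bp from the edge in siCtrl replicate 2.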

How the data were processed

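H3K4me2 peak lists of 4 ChIP libraries from RD cells, 2 per siRNA, and of the 2 pooled replicate sets were used. Reads were aligned with Bowtie to hg19, per the submitters' processing notes. MACS is named in the peak identifiers. Its version, settings and control, and the way of pooling, were not given in the sources used here. Scores of deposited peaks are the authors' own values, and ranks were taken only among peaks of the same list. Scores of different lists, where printed together, are a description, since their scales were not matched. Read depth is unknown from these lists.

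The members and gene lists were chosen with earlier results of these data known. The rule for named genes was to name all 9. Covered kilobases, peak numbers and merged regions were computed with Python 3.11.15 and numpy 2.4.6 on chromosomes 1 to 22 and X, and 10-kb windows with at least 0.5 kb in at least 2 libraries were fitted with limma 3.58.1 (trend and robust options, R 4.3.3) without a replicate term. Both steps were tested on simulated data as a check of the code. The simulated windows had the same noise throughout, unlike the real ones, so they do not show which shifts the fit could find here. The 50-kb tiles and counts of gaps and edges were chosen after the data were seen. No hg19 gene annotation was used, so a list of 27 other AP-1 and immediate-early genes was not analysed here. Gene intervals are those of the rule, neighbours and promoters come from RefSeq (GRCh38.p14), and the strand of FOSL1 from general knowledge. Alternatives were lists of equal length, the upper 50% by score, flanks of 5 and 50 kb, other merging rules, other window fits and leaving out each library.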

Additional observations from a re-analysis of the deposited data

How the results depend on the processing

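The summed difference in covered length at the 9 loci was 21.95 kb. It was 17.7 kb with equal numbers of peaks and 22.8 kb with the upper 50% by score. In the latter setting single loci moved in both directions. IER5 went from 1.29 to 5.75 kb, JUNB from 1.59 to -0.637 kb and FOSL1 from 7.78 to 6.11 kb. The summed difference was 10.7 kb with flanks of 5 kb and 36.8 kb with flanks of 50 kb, where more sequence is counted. Without single libraries it was between 13.65 and 30.3 kb, the lowest without siCtrl replicate 1. FOSL1, JUND and ATF3 stayed without overlap, siLSD1 above siCtrl, with equal numbers, the upper 50% by score and flanks of 5 and 50 kb. With equal numbers ATF3 stood apart by little, with 17.806 kb in siCtrl replicate 2 and 17.922 kb in siLSD1 replicate 1. IER5 stayed without overlap too, except with the upper 50% by score. Leaving out a library cannot make separated groups overlap, so those alternatives could not decide this. The difference in peak number, 5.5 peaks over all loci, was 1.5 with equal numbers and then the groups overlapped, 2.5 with the upper 50%, 3 with flanks of 5 kb and 12 with flanks of 50 kb, and 4 to 7 without single libraries. Regions with a peak in both siLSD1 libraries and neither siCtrl library numbered 1. They were 2 with equal numbers of peaks (at JUNB and JUND), 2 when overlap had to reach 50% of the shorter peak (at FOSL1 and JUND), and 0 when peaks were merged across 1000 bp or with flanks of 5 kb. Leaving out a library loosens the rule for gained, lost, broader and narrower regions. Without single libraries gained regions numbered 1 to 7, where 7.90% to 19.5% of all regions were gained. Lost regions then numbered 0 to 1, where 2.49% to 7.05% were lost. Broader common regions numbered 13, and 7 with flanks of 5 kb, where narrower ones numbered 1. They were 14 to 26 without single libraries, narrower ones 5 to 10, where 37.8% to 63.1% and 14.1% to 30.7% of all common regions were so. In windows, quantile normalization gave 5 higher and 4 lower, of which 0 were at the loci. The replicate block gave 0 and 0, as did the other fits. Same-numbered libraries deviated together with a correlation of 0.15 over windows, which does not settle whether they were paired by design. The fit with the replicate block does not settle it either, since the main fit had no call to lose. The pooled difference was 27.8 kb, and 25.8 kb with equal pooled lists. Read numbers are unknown, so absence of a peak says only that none was called.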
